A study of Mus musculus with 8 samples.

Results

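The 4 intervals described here, of 10 kb each, lie on mouse chromosome 7 between Ube3a and Snrpn, where a strand-specific tiling array gave strong signal on both strands at once. On build mm9 they are chr7:66650001-66660000, chr7:66750001-66760000, chr7:66940001-66950000 and chr7:67050001-67060000, and they are called bins A, B, C and D here. All probes that are not controls and whose lower coordinate lies in one of these intervals were taken, each strand separately, which gave 772 of the 53834 probes of the array and 8 of the 356 pairs of bin and strand tested in the tiled locus. Bins A and B hold 182 probes each, bin C 188 and bin D 220. Custom probes make up 728 of the 772, with 91 per bin and strand, and the other 44 are catalogue probes of the manufacturer. The bins were chosen by their signal levels on both strands, so those levels are a description and carry no test.

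The paternal chromosome of neurons carries a long RNA that starts at Snrpn, a gene expressed from that chromosome only, and runs on the minus strand through clusters of small nucleolar RNA genes into Ube3a. Its distal end, Ube3a-ATS, is antisense to Ube3a, which encodes an E3 ubiquitin ligase and which neurons express mainly from the maternal chromosome. An oligonucleotide probe binds every labelled cDNA that resembles it, so a probe whose sequence recurs in the genome can show signal from RNA made elsewhere, which is called cross-hybridization. Labelled first-strand cDNA is complementary to its RNA and so tells the strands apart, and signal on both strands of one interval can therefore come from RNA of both strands there or from related sequence in either orientation at other places.

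Cerebral cortex RNA of newborn C57BL/6 mice (postnatal day 0) was used, and each sample was hybridised to 1 array in the red channel. The maternal deletion (del s-u/+, n = 1) lacks the interval between Snrpn and Ube3a on the maternally inherited chromosome, and the paternal deletion (del +/s-u, n = 1) lacks it on the paternal chromosome. The double deletions (n = 2, del s-u/4.8 in one case, del s-u/0.9 in the other) join the maternal deletion with a deletion at the paternal Snrpn promoter. Title and genotype label name opposite promoter deletions for both of these samples, so they are called replicates 1 and 2 and their values are not tied to a deletion. PolyA RNA was purified from the total RNA of the wild types (n = 2), and total RNA of the wild-type littermates (n = 2) is what each is set against. Every genotype keeps at least 1 copy of the 4 bins: the paternal deletion keeps the maternal copy, the maternal and double deletions keep the paternal copy, and no sample lacks the sequence altogether. The number of animals per sample is not given in the labels, and the spread behind each p-value is that between the arrays at hand, which may be technical. In bulk tissue, fewer cells that make an RNA and less RNA per cell cannot be told apart. Probes carry no gene names, so cell type markers could not be looked up.

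Median red intensity over all probes was 45 and 44 on the polyA arrays, above a local background of 34. It lay between 98 and 161 on the total RNA arrays, above a background of 36 to 38. The share of spots well above background was 61.4% and 56.6% on the polyA arrays, against 81.1% to 88.4% on the total RNA arrays, and the number of arrays limits the precision of every value below. The unused green channel read 26 to 29 on the 772 probes, near its median of 27 on each array.

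Bin A was the brightest of the 4 on the minus strand. The median intensity of its minus-strand custom probes was 39327 in the maternal deletion, 37430 in the paternal deletion, 45299 and 43407 in the double deletions, 2645 and 2434 in polyA RNA, and 41636 and 38633 in wild-type total RNA. On its plus strand the same median was 5668 in the maternal deletion, 5914 in the paternal deletion, 6345 and 8219 in the double deletions, 1938 and 1050 in polyA RNA, and 5273 and 5187 in wild-type total RNA. All 6 total RNA arrays were thus bright on both strands, and replicate 2 of the double deletions was the highest on the plus strand.

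Bin D had a similar order of strands. Its minus-strand custom probes had medians of 33672 in the maternal deletion, 31807 in the paternal deletion, 40363 and 37434 in the double deletions, 2135 and 1810 in polyA RNA, and 35429 and 31685 in wild-type total RNA. Its plus-strand custom probes had medians of 3402 in the maternal deletion, 3600 in the paternal deletion, 3828 and 5052 in the double deletions, 1094 and 633 in polyA RNA, and 3469 and 3705 in wild-type total RNA. Replicate 2 of the double deletions was again the highest on the plus strand. Between 3 and 19 of the 91 minus-strand custom probes of bin A, and 2 to 7 of those of bin D, were saturated on a total RNA array, so the highest values in these bins are lower bounds.

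Bins B and C lay further below the scanner's ceiling. Bin B had minus-strand custom medians of 10803 in the maternal deletion, 9021 in the paternal deletion, 8298 and 11273 in the double deletions, 618 and 520 in polyA RNA, and 11251 and 10535 in wild-type total RNA. Its plus-strand medians were 3107 in the maternal deletion, 2977 in the paternal deletion, 3310 and 3189 in the double deletions, 1105 and 1017 in polyA RNA, and 3168 and 2587 in wild-type total RNA. Bin B was the only one of the 4 in which polyA RNA had a higher median on the plus strand than on the minus strand in both replicates.

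Bin C was the only one with a higher plus-strand median in total RNA. Its plus-strand custom probes had medians of 12738 in the maternal deletion, 12242 in the paternal deletion, 13860 and 14807 in the double deletions, 743 and 722 in polyA RNA, and 13550 and 12524 in wild-type total RNA. Its minus-strand custom probes had medians of 6632 in the maternal deletion, 5898 in the paternal deletion, 6661 and 6455 in the double deletions, 2339 and 1978 in polyA RNA, and 6951 and 6036 in wild-type total RNA. Different probes bind with different strength, so a higher value on one strand is not by itself a larger amount of RNA.

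**Figure D1:**
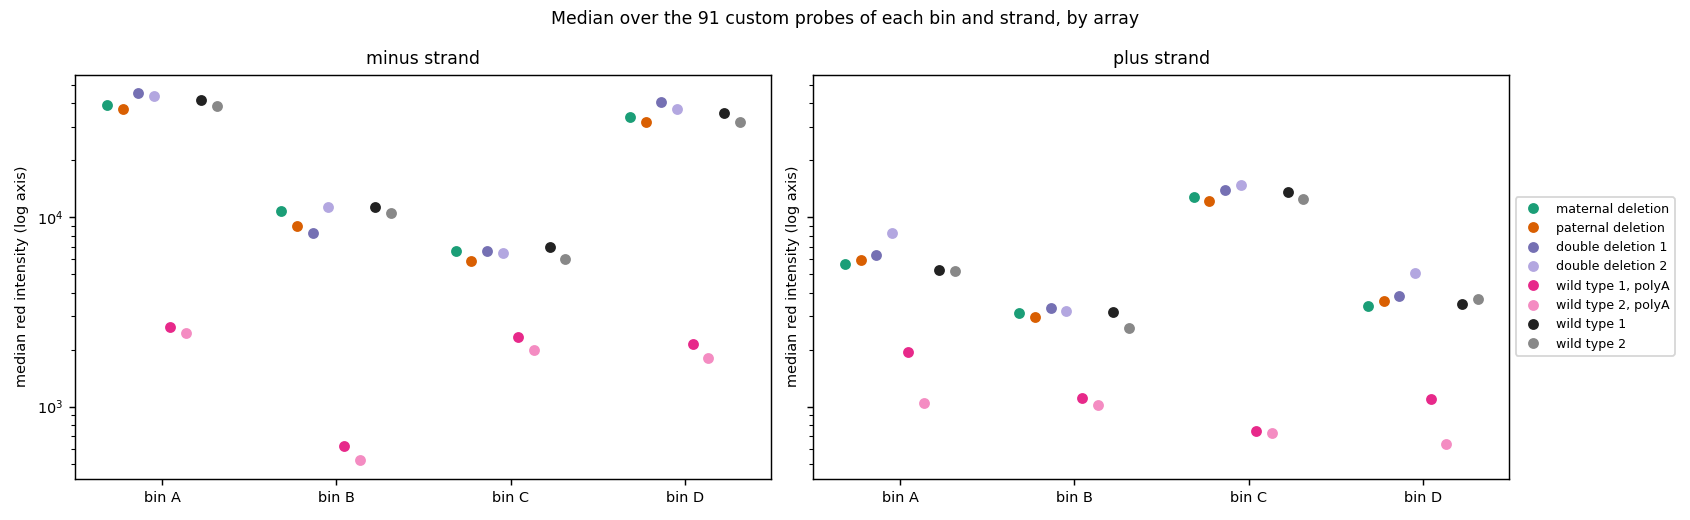
Median red intensity (log axis) over the 91 custom probes of bins A to D, minus strand on the left and plus strand on the right, with 1 point per array. The total RNA arrays lie close together in every bin and strand, the polyA arrays lie lower, and bin C is the only bin in which total RNA is higher on the plus strand.

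The borders of the deletion used here do not come from the labels. They were set at the largest steps in plus-strand signal of the maternal deletion array against wild type, at 66526901 and 67147632. Between them 57 bins had at least 3 custom probes on each strand. The plus-strand custom median in wild type 1 was 13550, 5273, 3469 and 3168 in bins C, A, D and B. Only 1 bin that is not among them was brighter on the plus strand, with 31425. It starts at position 66550001, towards the Ube3a end of the span. The next below bin B had 1276, and the median over all 53 other bins was 132. Just inside and just outside the choice, therefore, stood 3168 and 1276.

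Above the 95th percentile of all probes in both wild types (23026 and 20924) lay 169 of the 772 probes. They were 82 of 91 minus-strand probes in bin A and 62 of 110 in bin D, 9 of 91 in bin B, 2 of 94 in bin C, and 14 of 94 plus-strand probes in bin C. No plus-strand probe of bins A, B and D exceeded it. At the 75th percentile (803 and 732) 272 of the 364 custom positions were bright on both strands, 81 on the minus strand alone, 1 on the plus strand alone and 10 on neither.

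The bright positions were not spread evenly through the bins. A run was defined, after the data had been seen, as at least 10 custom positions bright on the plus strand in both wild types with at most 2 dimmer positions between them. Custom probes are 60 bases long and start every 110 bp at the same positions on both strands. Each bin held 1 such run, here called its stretch. It covered chr7:66649365-66659104 in bin A (9740 bp), chr7:66754195-66761514 in bin B (7320 bp), chr7:66941525-66948514 in bin C (6990 bp) and chr7:67051926-67065075 in bin D (13150 bp), so 3 of the 4 run past a border of their bin. With the 90th percentile in place of the 75th, 1 stretch was left in the 4 bins and 33 in the locus, against 4 and 77. Inside the stretches lay 275 minus-strand and 275 plus-strand member probes, and 111 of each strand lay in the same bins outside them.

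Signal changed at the edges of the stretches from one probe to the next, though not in the same way at all of them. At the left edge of bin A's stretch, the minus-strand probe at 66649255 read 48 in the paternal deletion, against 7882 and 6950 in the wild types, and the next probe, at 66649365, read 26140 in the paternal deletion, against 28256 and 24155. At the right edge of bin C's stretch, the minus-strand probe at 66948455 read 14962 in the paternal deletion, against 13898 and 10197 in the wild types, and the next, at 66948565, read 143 in the paternal deletion, against 11238 and 7990. On the plus strand the last pair of probes read 31495 and 413 in the paternal deletion, against 28394 and 422 in wild type 1. At these edges the wild types had minus-strand signal on both sides and strong plus-strand signal on 1 side only, whereas the paternal deletion had strong signal on both strands inside and low signal on both outside. Not every outside probe was near background in the paternal deletion: the second outside probe to the right of bin A's stretch, at 66659265, read 2514 in the paternal deletion, against 10669 and 9491 in the wild types. Nor was wild-type minus-strand signal strong outside every edge. The first outside probe read 187 and 198 in the wild types to the right of bin A's stretch. At bin D's stretch it read 211.5 and 177.5 to the left and 736.5 and 613 to the right.

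**Figure D2:**
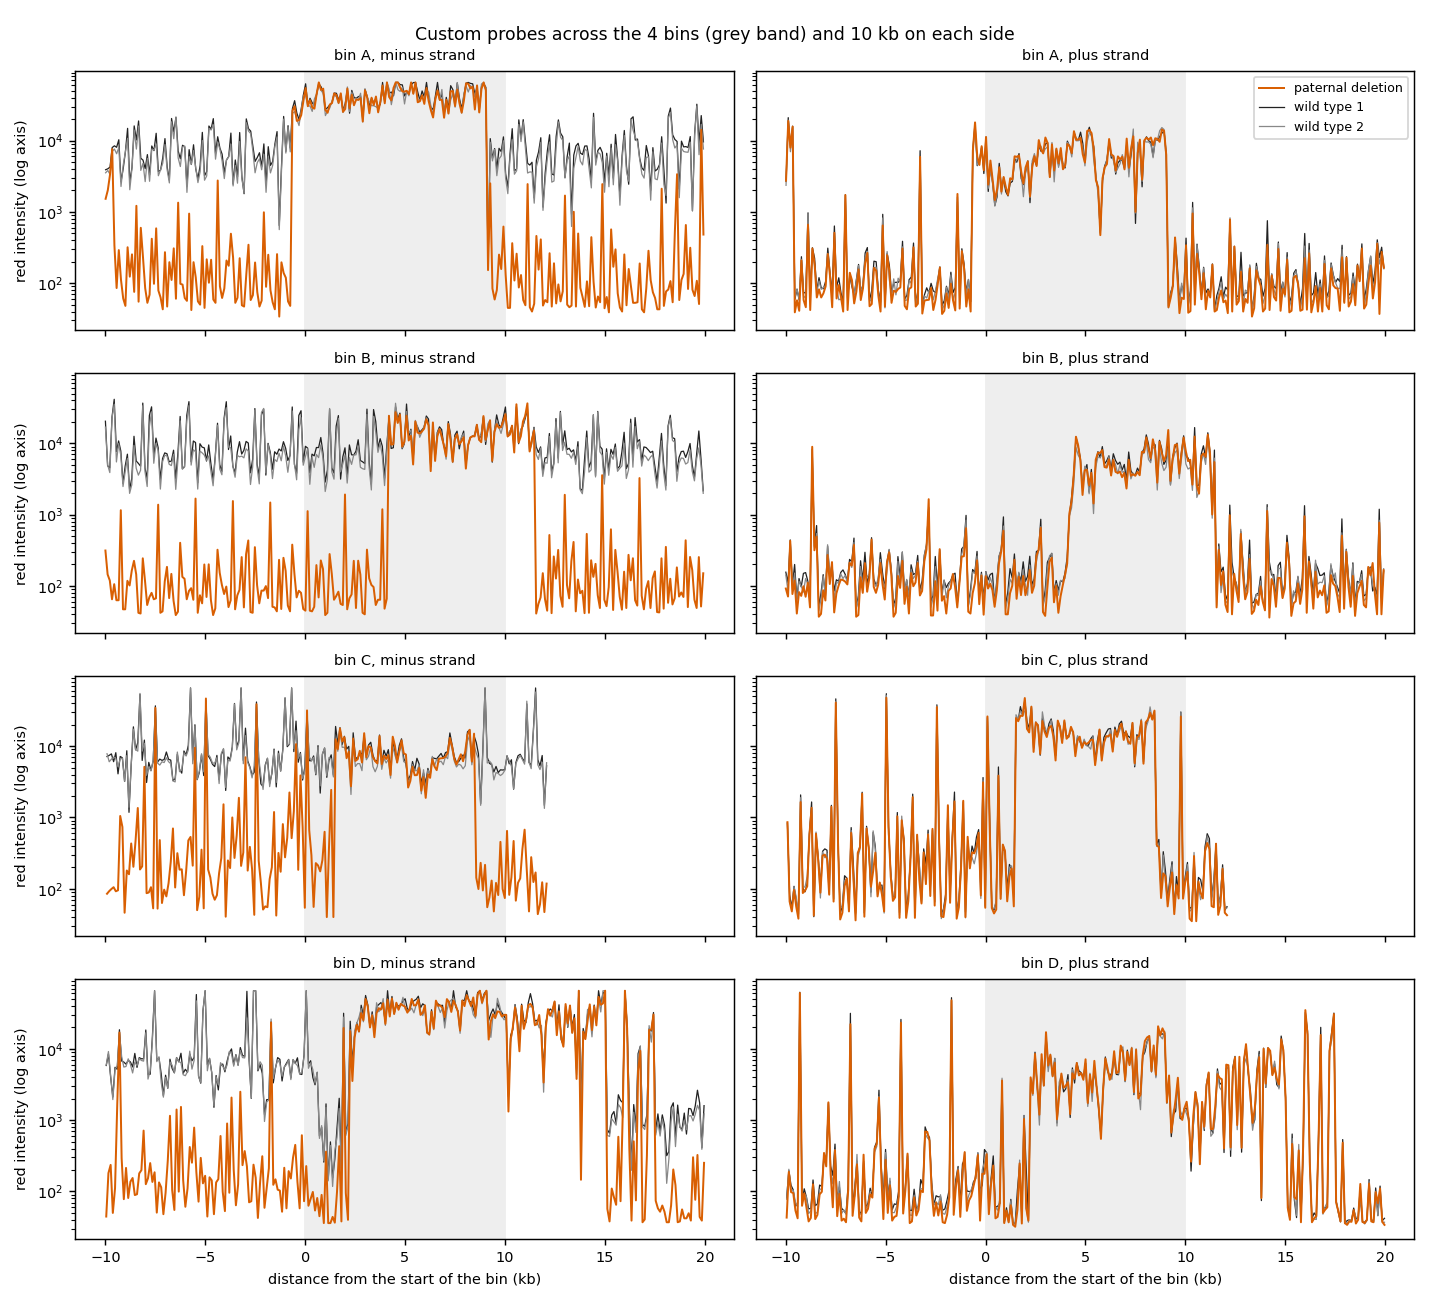
Red intensity (log axis) of custom probes against the distance from the start of each bin in kb, minus strand on the left and plus strand on the right, for the paternal deletion (orange) and wild types 1 and 2 (black and grey). Grey bands mark the bins, and custom probes to the right of bin C end after about 12 kb. Inside each stretch the 3 lines run together on both strands. Outside it the paternal deletion lies far below the wild types on the minus strand.

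In the paternal deletion the minus-strand signal of the stretches stayed at the wild-type level while that of the sequence around them was lost. Bin B shows it well below saturation. Outside the stretch its 38 minus-strand custom probes had a median of 68.0 in the paternal deletion, against 7531 and 6359 in the wild types. Inside, its 53 minus-strand custom probes had a median of 12687 in the paternal deletion, against 14831 and 13688. Outside, the paternal deletion lay far below both wild types, whereas inside it lay below wild type 2 by less than the wild types differed from each other.

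Bin C gave the same picture. Outside its stretch the 27 minus-strand custom probes had a median of 143 in the paternal deletion, against 6226 and 6179 in the wild types. Inside, the 64 probes had a median of 6786 in the paternal deletion, against 7247 and 6007, so the paternal deletion lay between the wild types. In bin A the 8 outside probes had a median of 155 in the paternal deletion, against 7374 and 5817, and the 83 inside probes had 40011, against 42707 and 41263. In bin D the 17 outside probes had 63.0 in the paternal deletion, against 799 and 839, and the 74 inside probes had 34478, against 38902 and 34411.

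By probe, 120 of the 762 member probes tested were called in the paternal deletion (limma, Benjamini-Hochberg adjusted p under 0.05 over all 50103 probes), where 17.9% of all probes were called. They fell by place: 109 of 111 minus-strand probes outside the stretches were lower, with a median log2 change of -5.15, and 5 of 275 inside were lower, with a median of -0.02. On the plus strand 1 of 274 tested probes inside was higher and 5 of 102 outside were lower. The median over all tested probes of the locus was -0.06. Inside, 265 of 275 minus-strand changes lay within 0.5 of 0 on the log2 scale. Among the 239 of them that were not saturated on any array, 229 did, and their median was -0.03.

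The exceptions were few and are given in full for the minus strand. Outside the stretches 2 probes were not lower. RC_CUST_6988_PI425394930 (chr7:66659155-66659214), the dimmest minus-strand probe of bin A, read 153 in the paternal deletion, against 187 and 198 in the wild types (log2 change -0.29, limma adjusted p = 0.266). RC_CUST_9542_PI425394930 (chr7:66940095-66940154) read 31726 in the paternal deletion, against 30020 and 25828 (log2 change 0.20, limma adjusted p = 0.494). It is 1 of 4 positions of bin C outside the run that were bright on both strands in wild type, and its plus-strand probe, CUST_9542_PI425394930, read 26122 in the paternal deletion, against 25169 and 22947. The other 3 were lower on the minus strand in the paternal deletion: RC_CUST_9543_PI425394930 read 663.5 there, against 6266 and 7107 in the wild types, RC_CUST_9547_PI425394930 read 212, against 10175 and 9649, and RC_CUST_9630_PI425394930 read 454, against 4653 and 3868.

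Of the 5 lower probes inside, 3 lay near the left end of bin D's stretch. RC_CUST_10105_PI425394930 and RC_CUST_10106_PI425394930 (starts 67052036 and 67052146) read 95 and 40 in the paternal deletion, against 654 and 902 in wild type 1 and 610 and 834 in wild type 2. Their plus-strand partners were dim as well, at 58.0 and 39.0 in the paternal deletion, against 208 and 41.0 in wild type 1, so these are 2 of the dimmer positions that the run bridges. The catalogue probe RC_A_67_P14809822 (start 67052415) read 918 in the paternal deletion, against 2038 and 1794. The other 2 were RC_CUST_6982_PI425394930 in bin A, at 27319 in the paternal deletion, against 45481 and 40865 in the wild types, and RC_CUST_10170_PI425394930 in bin D, at 13533, against 24997 and 24024. These custom and catalogue probes fell by 0.64 to 3.86 on the log2 scale, with limma adjusted p between 0.00015 and 0.0386.

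The split was also seen without the rule for runs, but this is no independent check. Runs and single positions were both defined by the same plus-strand brightness in the same wild types, so they hold largely the same probes. Those wild types are also what the paternal deletion is set against. Sorted by single positions, the 272 minus-strand probes whose position was bright on both strands in wild type had a median log2 change of -0.02 in the paternal deletion, with 5 lower and 0 higher. The 81 whose position was bright on the minus strand alone had a median of -5.41, with 77 lower and 0 higher. Brightness on the plus strand was read in the wild types only, so these counts describe how the 2 measures go together and carry no test of their own.

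The largest losses in the paternal deletion were at single bright probes outside the stretches. RC_CUST_9623_PI425394930 (chr7:66949005-66949064, minus strand) read 216 in the paternal deletion and was saturated at 65508 in both wild types. Its log2 change was -8.09 (limma adjusted p = 0.0001), a bound, since the wild-type spots were saturated. RC_CUST_10087_PI425394930 (chr7:67050056-67050115) read 227 in the paternal deletion and 65508 in both wild types, a log2 change of -8.02 (limma adjusted p = 0.0001) that is a bound likewise. Neither lay in a stretch. RC_CUST_10166_PI425394930 (chr7:67058746-67058805) in bin D, inside its stretch, was saturated at 65508 on all 6 total RNA arrays, so its change is not known.

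**Figure D3:**
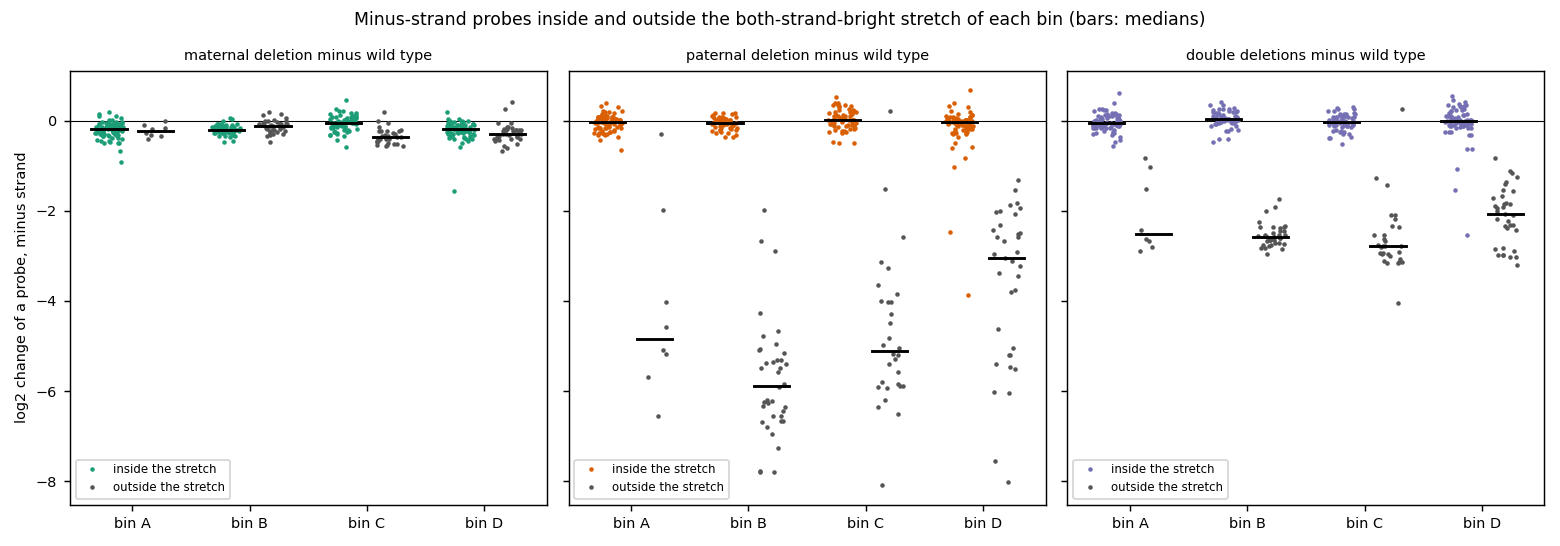
Log2 change of each tested minus-strand member probe in the maternal deletion, the paternal deletion and the mean of the double deletions, each minus wild type, inside (coloured) and outside (grey) the stretch of bins A to D. Bars are medians. In the paternal and double deletions the probes inside lie near 0 and those outside below it, with medians over all 4 bins of -5.15 and -2.56 outside, and in the maternal deletion both lie near 0.

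As whole bins, which mix both kinds of probe, all 4 were lower on the minus strand in the paternal deletion and none was called on the plus strand, 4 of 8 in all against 34.8% of 356 bins of the locus called and 22.2% lower. The log2 change on the minus strand was -0.41 ± 0.05 in bin A, -2.43 ± 0.06 in bin B, -1.49 ± 0.10 in bin C and -1.25 ± 0.05 in bin D (± SE, limma adjusted p between 0.000453 and 0.0186). It followed how much of the bin lay outside a stretch, from 8 of 91 minus-strand probes in bin A to 38 of 91 in bin B. On the plus strand it was 0.08, -0.10, -0.08 and 0.00 in bins A to D (limma adjusted p between 0.216 and 0.956). With the 75th percentile of all probes as scale, a level that itself fell in the paternal deletion, 5 of the 8 bins were higher and 2 lower, with 645 member probes higher and 109 lower. With quantile normalization, 4 bins were higher and 4 lower, with 238 probes higher and 118 lower.

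Against their neighbours the 4 bins stood out further. The mean log2 signal of a bin minus that of the bins next to it, up to 2 on each side on the same strand, does not depend on a scale between arrays. For the minus strand of bin A it was 7.11 in the paternal deletion, against 2.61 and 2.71 in the wild types, and for bin B 3.45, against 0.42 and 0.51. For bin C it was 3.55 in the paternal deletion, against 0.92 and 0.74, and for bin D 4.01, against 1.6 in both. The differences from wild type were 4.45 ± 0.04, 2.98 ± 0.04, 2.72 ± 0.06 and 2.41 ± 0.03 in bins A to D (± SE, limma adjusted p between 4.16e-13 and 1.63e-10). On the plus strand they were 0.32, 0.19, 0.10 and 0.11 (limma adjusted p between 8.19e-05 and 0.0268). All 8 were higher, where 13.8% of 354 such differences in the locus were. The bins were chosen by their levels on both strands, from which this difference is formed, so these calls are a description. The bins themselves were lower on the minus strand and not called on the plus strand, so the rise came mostly from lower signal in their neighbours. Parts of the stretches of bins A, B and D lie in bins used as neighbours.

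These calls rest on the spread of 1 pair of wild types, since the single deletions have no replicate and each double deletion is a group of its own. With the double deletions taken as 1 group, whose 2 samples differ widely on this strand, limma called 0 of the 8 bins, 0 of the 8 local differences and 0 member probes in the paternal deletion. Without 1 wild type this design has no spread left to estimate, and a test needs the double deletions as 1 group as well. The log2 changes themselves moved little: without one wild type, the minus-strand change of bin B was -2.48 or -2.38.

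**Figure D4:**
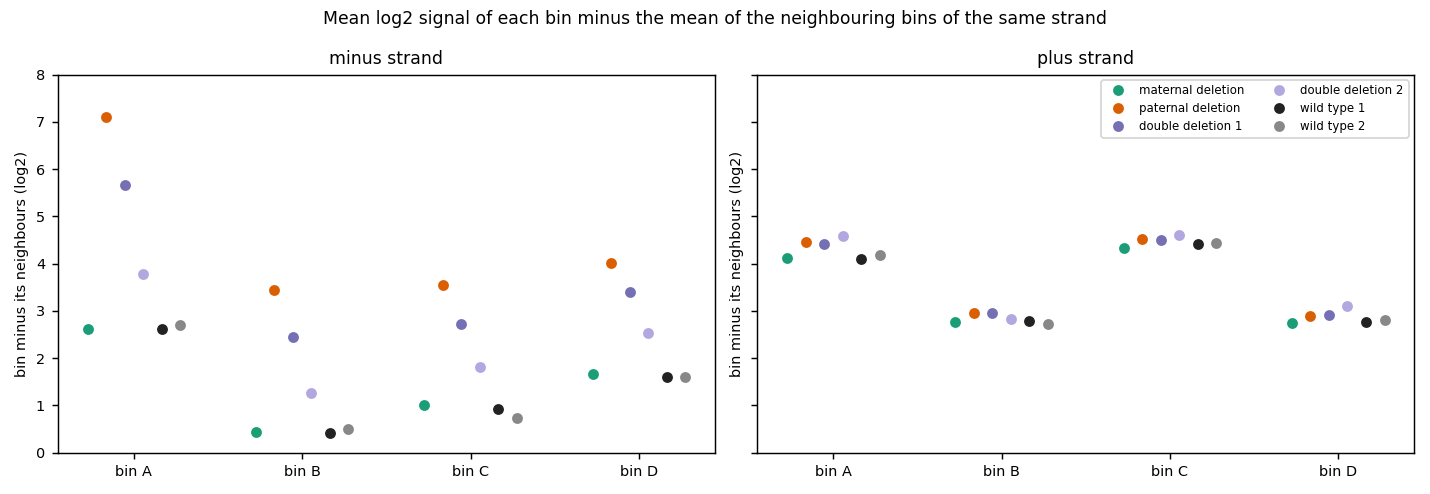
Mean log2 signal of bins A to D minus the mean of the neighbouring bins of the same strand, 1 point per total RNA array, minus strand on the left and plus strand on the right. On the minus strand the paternal deletion is highest in every bin, at 3.45 to 7.11, the double deletions lie between, and the maternal deletion lies with the wild types.

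The double deletions kept the signal of the stretches and lost part of the signal around them. In bin B the minus-strand probes outside the stretch had medians of 494 and 3045 in the double deletions, against 7531 and 6359 in the wild types. Inside it they had 15995 and 17881 in the double deletions, against 14831 and 13688. In bin C the outside medians of custom probes were 540 and 1655 in the double deletions, against 6226 and 6179, and the inside medians were 7829 and 7240, against 7247 and 6007. Replicate 1 lay below replicate 2 outside the stretches in all 4 bins, and both lay below both wild types there.

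Of the 762 member probes tested, 172 were called in the double deletions, where 34.4% of all probes were. Outside the stretches 110 of 111 minus-strand probes were lower, with a median log2 change of -2.56, and inside 10 were lower and 4 higher of 275, with a median of -0.01. By bin the minus-strand change was -0.21, -1.04, -0.85 and -0.71 in bins A to D (limma adjusted p between 0.00128 and 0.0356), and 6 of 8 bins were called, against 48.9% of the locus. The local difference was higher by 2.06, 1.39, 1.44 and 1.36 on the minus strand and by 0.37, 0.13, 0.14 and 0.23 on the plus strand (limma adjusted p between 5.95e-11 and 0.00275). All 8 were higher, where 23.7% of the locus was, and these calls are a description for the reason given for the paternal deletion. The sizes depended on the replicate, with a minus-strand local difference of 1.12 from replicate 2 alone and 3.01 from replicate 1 alone in bin A, 0.80 and 1.98 in bin B, 0.99 and 1.90 in bin C, and 0.93 and 1.79 in bin D. The bin change of B was -0.49 from replicate 2 alone and -1.59 from replicate 1 alone. From replicate 2 alone the minus-strand change of bin A and the plus-strand local difference of bin B were not called. With the double deletions as 1 group, 0 of these bins, 0 local differences and 8 probes were called. With the 75th percentile of all probes as scale, 360 member probes were higher and 114 lower, against 35 and 137.

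The plus strand of bins A and D was slightly higher in the double deletions. The log2 change was 0.23 ± 0.03 in bin A and 0.17 ± 0.03 in bin D (± SE, limma adjusted p = 0.0132 and 0.0263), and it was -0.06 in bin B and 0.01 in bin C (limma adjusted p = 0.56 and 0.725). Replicate 2 carried most of it: from replicate 1 alone the changes were 0.08 and 0.05, and neither was called. In the stretch of bin A the median plus-strand change was 0.10 in replicate 1 and 0.42 in replicate 2, and in that of bin D it was 0.15 and 0.42. In the stretches of bins B and C it was 0.10 and -0.03 in replicates 1 and 2 of B, and -0.03 and 0.12 in those of C. Whether it comes from the locus was not tested: over 63 other stretches outside the deletion, the plus-strand change in replicate 2 ranged from -0.145 to 0.528.

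The maternal deletion left the 4 bins near the wild-type level on both strands. None of the 8 bins was called by limma (3 of 8 at an unadjusted p under 0.05), against 21.1% of the locus, and none of the 8 local differences was (3 at an unadjusted p under 0.05), against 16.7%. The bin changes lay between -0.23 and -0.03. Of 762 member probes tested 3 were called, all lower, where 8.76% of all probes were called. The largest changes were at RC_CUST_10157_PI425394930 in bin D (chr7:67057756-67057815), which read 6517 in the maternal deletion, against 17976 and 16539 in the wild types (log2 change -1.55, limma adjusted p = 0.00941), and at RC_CUST_6982_PI425394930 in bin A, which read 25318, against 45481 and 40865 (log2 change -0.91, limma adjusted p = 0.0285). Both lay inside a stretch, on the minus strand.

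Catalogue probes lay almost entirely in the sequence around the stretches. Of the 44 in the 4 bins, 6 lay in bin C and 38 in bin D, none in bins A and B, and 2 of them (1 per strand) lay inside a stretch. The minus-strand one, RC_A_67_P14809822, was lower in the paternal deletion, as given above, and in the double deletions (log2 change -1.08). In the whole locus 1.958% of the 18492 catalogue probes lay in the 77 stretches, as did 18.641% of the 16002 custom positions. All 21 minus-strand catalogue probes outside the stretches were lower in the paternal deletion, and all 21 in the double deletions. Their median intensity in bin C was 139 in the paternal deletion, 423 and 1192 in the double deletions, and 4472 and 4567 in the wild types.

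In bin D the 19 minus-strand catalogue probes had medians of 43.0 in the paternal deletion, 83.5 and 287 in the double deletions, 68.0 and 61.0 in polyA RNA, and 860 and 713 in wild-type total RNA. The 91 custom probes of the same bin and strand had medians of 31685 to 40363 on the total RNA arrays, but 74 of them lay inside the stretch. Outside it the sources were alike: the 18 catalogue probes had wild-type medians of 774 and 700, and the 17 custom probes 799 and 839. On the plus strand the catalogue medians of bin D were 58.0 in the maternal deletion, 54.0 in the paternal deletion, 61.0 and 59.0 in the double deletions, and 51.0 and 52.5 in wild-type total RNA, where 14 and 12 of the 19 probes were well above background. The brightest of the minus-strand catalogue probes, RC_A_67_P14809805 (chr7:67050002-67050046), read 146 in the paternal deletion, against 34008 and 29600 in the wild types (log2 change -7.55, limma adjusted p = 0.0001). With catalogue probes alone, the minus-strand local difference of bin C turned to -0.34 in the paternal deletion and -0.25 in the double deletions, both called by limma.

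PolyA RNA changed the strands of a stretch unequally. Relative to total RNA of the same wild types, the minus-strand probes inside the stretches of bins A, B and D had median log2 changes of -2.68, -2.68 and -2.82, and all 83, all 53 and 73 of 74 custom probes were lower. Over all probes tested 72.6% were called, and outside the stretches 109 of 111 minus-strand probes were lower, with a median of -2.43. The plus-strand probes inside the stretches of bins A, B and D had medians of -0.35, -0.22 and -0.58. In bin C the strands were the other way round: the plus strand had a median of -2.56, with all 64 probes lower, and the minus strand had 0.14, with 24 higher and 15 lower of 64. In each of the 4 stretches it was the brighter strand in total RNA that lost more. The level used for scaling was 44 and 43.5 on the polyA arrays, near their background of 34. Without scaling, the log2 ratio of polyA over total RNA in the stretches of bins A to D was -1.80, -1.27, -3.90 and -2.13 on the plus strand. On the minus strand it was -4.02, -4.07, -0.78 and -4.12. The sequence around the stretches cannot show whether a larger loss on the brighter strand was particular to them, since its plus strand was dim. Plus-strand custom medians there were 85.5, 141, 148 and 64.0 in wild type 1 in bins A to D. In polyA replicate 1 they were 47.5, 49.0, 51.0 and 39.0, near the local background of 34. Around the stretches the minus strand was the brighter one in total RNA. There the minus-strand custom probes had median log2 changes of -3.94, -4.17, -2.29 and -1.725 in bins A to D. The plus-strand custom probes around the stretches had 0.44, 0.03, 0.03 and 0.44 after scaling, although their median intensities fell.

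The order of the strands turned in bins B and C. In the stretch of bin B the median was 2522 and 1959 in polyA RNA on the plus strand, against 5758 and 5016 in total RNA, and 898 and 810 in polyA RNA on the minus strand, against 14835 and 13846. In the stretch of bin C it was 1114 and 1016 in polyA RNA on the plus strand, against 16132 and 15722 in total RNA, and 4238 and 3477 on the minus strand, against 7247 and 6007. In bins A and D the minus strand stayed the higher one in polyA RNA, at 2701 and 2436 against 2174 and 1137 on the plus strand in bin A, and at 2128 and 1781 against 1177 and 677 in bin D.

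**Figure D5:**
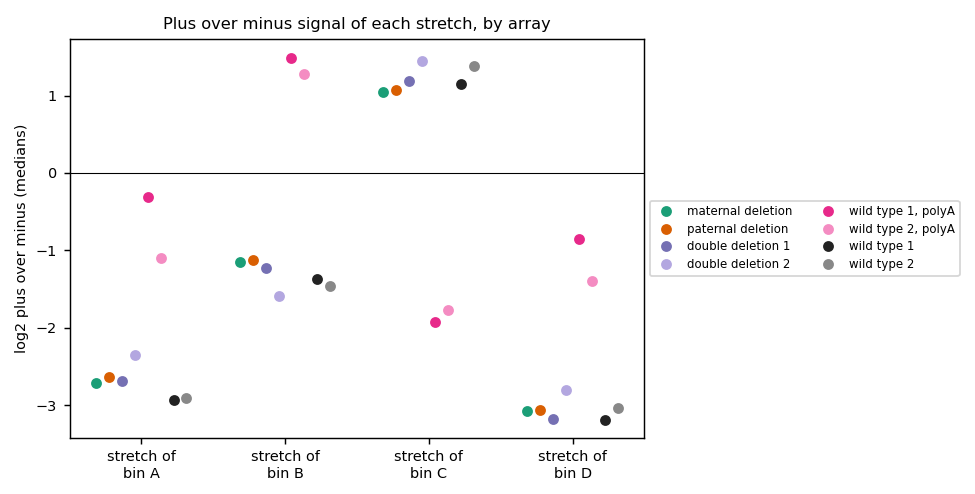
Log2 of the median plus-strand over the median minus-strand intensity of custom probes in the stretch of bins A to D, 1 point per array. The 6 total RNA arrays lie together in every stretch. The polyA arrays change sign against them in bins B and C, and lie above them in bins A and D.

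By bin, 5 of 8 were lower in polyA RNA, where 61.5% of the locus was called and 55.1% was lower. Of the 8 local differences 6 were called, against 68.1%: the minus strand was higher by 0.91, 0.74 and 1.41 in bins A, B and C and had -0.48 in bin D, and the plus strand had -0.17 in bin B and -1.74 in bin C (limma adjusted p between 7.73e-05 and 0.0498). The log2 change on the minus strand was -2.63, -3.28, -0.62 and -2.38 in bins A to D and -1.76 on the plus strand of bin C (limma adjusted p between 3.64e-05 and 0.00728). The plus strands of bins A, B and D had -0.32, -0.08 and -0.40 (limma adjusted p between 0.153 and 0.447). The polyA replicates differed there: without replicate 1, bins A and D had -0.67 and -0.68 and both were called, and without replicate 2 they had 0.04 and -0.11 and neither was. Of 759 member probes tested 553 were called, 83 higher and 470 lower, where 72.6% of all probes were. These directions depend on the scale between arrays of unlike signal: with the 75th percentile of all probes as scale, 4 of the 8 bins were higher and 4 lower, with 320 probes higher and 367 lower. The unequal change of the 2 strands of a stretch does not depend on it.

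Stretches by the rule for runs, which asks for brightness on the plus strand only, were found throughout the tiled locus, 77 in all. Not all were bright on both strands: that of chr7:66436625-66438774 had minus-strand medians of 191 and 149 in the wild types. Besides the 4 described here, 10 lay inside the deletion by the borders given above and 63 outside. Over the 63 outside, the median minus-strand change in the paternal deletion ranged from -0.18 to 0.17, and the plus-strand change from -0.10 to 0.28. Of the 10 others inside the deletion, 6 kept their minus-strand signal within 0.5 of wild type on the log2 scale and 4 did not, with changes down to -2.69. Such is the stretch of chr7:66560265-66565494, which lost signal on the minus strand in the paternal deletion (-2.69) and on the plus strand in the maternal deletion (-1.97). Its wild-type minus-strand medians (581 and 548.5) lay under the 75th percentile (803 and 732), as did those at chr7:66531225-66532384 (523.5 and 485). It held 104 catalogue probes, against 0 to 2 in the 4 stretches described here. The stretches of chr7:66635725-66638534 and chr7:66638915-66640404 had brighter minus-strand medians, 1900 and 1788.5, and 2940 and 2626. They changed by -0.99 and -0.86 in the paternal deletion. The 4 stretches described here had -0.03, -0.03, 0.03 and -0.03 on the minus strand in the paternal deletion, and -0.05, -0.01, -0.16 and -0.03 on the plus strand in the maternal deletion.

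The stretches of bins B and C also resembled each other in outline. When their custom positions were aligned in opposite orientation with a shift of 200 bp, the log2 signal in wild type correlated across 63 positions with r = 0.558 for the plus strand of bin B against the minus strand of bin C, and r = 0.724 for the minus strand of B against the plus strand of C. In polyA RNA the same alignment gave r = 0.652 and 0.752, where the alignment of A and C in opposite orientation reached 0.688 and 0.495. Over the 12 pairings and orientations of the 4 stretches it was the closest in wild type, with 0.151 to 0.47 for the others. The shift was chosen as the best of many, neighbouring positions share sequence context, and the values are a description with no test. Within a bin, the plus-strand and minus-strand signals of the same positions correlated with r = 0.801, 0.51, 0.235 and 0.83 in bins A to D over 91 positions each. These positions lie both inside and outside the stretch, whose levels differ, so r does not compare the strands within a stretch.

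Whether the signal of the stretches came from RNA made there or from related sequence elsewhere was not tested. The files used here name the probes by position and do not give the number of genome sites each one matches.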

How the data were processed

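RNA of 6 total and 2 polyA samples was hybridised to a tiling array on 1 slide in 1 scan. The values are the red median intensity per spot as deposited by the authors, read with Agilent Feature Extraction 10.7.3.1 per the file headers (10.9 per the submitters' processing notes). A value table also deposited by the authors holds intensity values that are the red median times 1 factor per array (0.859 to 1.984, how chosen is not stated), with column medians of 75.4 to 105.8, and 44 of the 772 probes. Coordinates are mm9, from the probe annotation in the files. No column belonged to other samples (0).

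Spots of a probe were averaged, corrected with normexp (offset 50), put on the log2 scale and scaled to each array's 75th percentile of probes outside the tiled locus. Probes that every array of some group showed well above background, means of bins with at least 3 such probes, and each bin's difference from up to 2 neighbours a side were tested two-sided with limma 3.58.1 in R 4.3.3 (Benjamini-Hochberg, threshold 0.05). Residual degrees of freedom were 1 for total RNA, where each double deletion was its own group and the contrast used their mean, and 2 for polyA against total RNA. The scripts were tested on simulated data. Other scales, background corrections, filters, probe sources, groupings and left-out samples were tried.

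The series design text says polyA RNA was purified from the wild-type RNAs, which pairs the samples. Over 43864 probes the difference between replicates correlated with r = 0.19 between polyA and total RNA. For each bin and strand the named probes were the 2 brightest and the dimmest custom probe and the brightest catalogue probe by wild-type mean, and the 2 largest called changes of each contrast. Others named, at edges and as exceptions, were chosen after their values were seen. Members, runs and lists were chosen with earlier results of these data known. RefSeq tables of GRCm38.p6 served for gene names only.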

Additional observations from a re-analysis of the deposited data

How the results depend on the processing

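The precision is limited by 1 residual degree of freedom, 1 array for each single deletion, saturation in bins A and D, and low signal in polyA RNA. Bins A and B have no catalogue probes, so catalogue probes alone and the authors' value table gave no value for them. In this section the causes were not tested unless the setting itself uses fewer samples or probes. With the replicate number as a block (replicate block), 5 bins, 6 local differences and 589 probes were called in polyA RNA, against 5, 6 and 553, and no call of a bin or local difference changed. Leaving out saturated probes, an alternative chosen after seeing the data, kept all these counts within 1.5 times.

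Leaving out each replicate in turn, calls in the paternal deletion ranged from 0 to 4 bins, 0 to 8 local differences and 0 to 121 probes, and in the double deletions from 0 to 5 bins, 0 to 8 local differences and 0 to 163 probes. In the maternal deletion 0 to 1 local differences and 0 to 3 probes were called. The zeros came without wild type 1 or 2, where no spread can be estimated unless the double deletions are also taken as 1 group, so 2 choices changed together. In polyA RNA 4 to 7 bins, 5 to 8 local differences and 496 to 606 probes were called. With the double deletions as 1 group, 0 bins, 0 local differences and 0 probes were called in the paternal deletion, 0, 0 and 8 in the double deletions, and 0 probes in the maternal deletion.

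With the 75th percentile of all probes as scale, the median change of all probes was 1.07 in the paternal deletion, 0.28 in the double deletions and 1.02 in polyA RNA, against -0.05, -0.10 and -0.25. It gave 7 bins and 754 probes in the paternal deletion, 474 probes in the double deletions, 2 bins and 6 probes in the maternal deletion and 8 bins in polyA RNA. It turned the change in the paternal deletion to 0.71 for A minus, 1.02 for B plus and 1.04 for C plus, in the double deletions to 0.16 for A minus and 0.32 for B plus, and in polyA RNA to 0.95, 1.18 and 0.86 for A, B and D plus and 0.65 for C minus.

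Quantile normalization gave 8 bins and 356 probes in the paternal deletion, 367 probes in the double deletions, 4 local differences in the maternal deletion and 8 bins in polyA RNA. It turned B plus to 0.58 and C plus to 0.26 in the paternal deletion, B plus to 0.34 in the double deletions, and A, B and D plus to 1.29, 1.03 and 0.90 and C minus to 1.13 in polyA RNA. Local differences turned to 0.18 for A plus in the maternal deletion, -0.0092 for C plus in the paternal deletion, and 1.08, 0.76 and 0.50 for A, B and D plus in polyA RNA. The scale on outside probes well above background gave 4 bins and 6 probes in the maternal deletion and turned B plus to 0.26 in polyA RNA.

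Background-subtracted signal gave 2 bins and 1 probe in the maternal deletion and 8 bins in polyA RNA, where it turned A, B and D plus to 1.27, 1.04 and 0.97, C minus to 1.06, and the local differences of A and B plus to 0.86 and 0.53. The maternal deletion had 1 local difference with no background correction, with probes well above background on every array, and with 4 neighbours, and 1 bin without bright probes. The median over a bin's probes gave 1 bin in the paternal and 3 in the double deletions. Above the 90th and 99th percentiles lay 346 and 22 member probes, against 169.

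Catalogue probes alone gave 2 bins and 2 local differences in the paternal deletion with 22 probes, 2 and 2 in the double deletions with 23 probes, 2 bins and 1 probe in the maternal deletion, and 3 local differences and 35 probes in polyA RNA. They turned the double deletions' D plus to -0.046, the local difference of C minus to -0.34 in the paternal deletion, -0.25 in the double deletions and -0.43 in polyA RNA, that of C plus to -0.0029 in the double deletions, and polyA RNA's D plus to 0.50 (local 0.27). The authors' value table gave 2 local differences and 22 probes in the paternal deletion, 2 bins, 1 local difference and 23 probes in the double deletions, 2 bins and 1 probe in the maternal deletion, and 33 probes in polyA RNA. It turned the local difference of C minus to -0.25, -0.22 and -0.40 in the paternal deletion, the double deletions and polyA RNA, that of C plus to -0.00191 in the double deletions, and polyA RNA's D plus to 0.20 (local 0.33).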

Other observations

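Minus-strand probes that were bright in wild type and lost signal in the paternal deletion recurred at fixed distances around some stretches. Such positions were taken outside the stretches within 10 kb of the bins, above 20000 in both wild types and under 0.25 times the wild-type level in the paternal deletion, a rule chosen after the data had been seen. Near bin B there were 23 such positions, and 14 pairs of them lay 1870 bp apart, the commonest distance. Near bins C and D there were 9 and 8, and in both cases the commonest distance was 2530 bp, with 5 pairs each. Near bin A there were 6, with no distance that occurred more than once. Custom positions are 110 bp apart, so distances are known only to that step. The span between Ube3a and Snrpn lists 206 small nucleolar RNA genes in RefSeq (GRCm38.p6), and whether these probes lie on them was not tested, since coordinates of that build do not apply to mm9.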
